A study of Sus scrofa with 22 samples.

Results

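Aminoacyl-tRNA synthetases are the enzymes that join each amino acid to its matching transfer RNA, and they were followed here through cloned and fertilised pig fetuses and blastocysts. Members were matched by gene symbol, a choice made with earlier results of these data known. The pig RefSeq annotation lists 36 synthetase genes. Of these, 18 had at least 1 matched transcript record, out of 14389 genes with a matched record. The 18 measured genes were 9 of 18 cytosolic enzymes (DARS, FARSA, HARS, NARS, RARS, SARS, VARS, WARS and YARS), both dual enzymes (GARS and KARS) and 7 of 16 mitochondrial enzymes (AARS2, EARS2, IARS2, NARS2, PARS2, TARS2 and VARS2). The other 18, of which 9 are cytosolic and 9 mitochondrial, were not analysed here. Each of the 18 measured genes passed the low-count filter in fetuses and in embryos.

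The first letter of each symbol is the one-letter code of the amino acid that the enzyme charges: NARS charges asparagine, WARS tryptophan, YARS tyrosine, GARS glycine, SARS serine, DARS aspartate, RARS arginine, VARS valine, HARS histidine and KARS lysine. FARSA is one subunit of the phenylalanine enzyme. Symbols ending in 2 name the enzymes that serve only the mitochondrial ribosome, whereas GARS and KARS each encode both the cytosolic and the mitochondrial form. As background, the genes for several cytosolic synthetases are known targets of ATF4, the transcription factor of the amino acid and unfolded protein responses. DARS, RARS and KARS belong to a large multi-synthetase complex held together by the scaffold proteins AIMP1, AIMP2 and EEF1E1.

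The series holds 22 RNA-seq libraries of pig. In 14 of them the source was body tissue of fetuses at day 30 or day 35. At each day there were 3 libraries titled normal, 2 titled abnormal and 2 of naturally fertilised (NF) fetuses; the series' design text names the fetuses as cloned or NF, and no label says what made a fetus abnormal. The other 8 were day 6 blastocysts, 2 libraries each of cloned embryos titled WT, XIST-KO and WT+Kdm4A, and of embryos titled IVF. XIST is the RNA that silences an X chromosome and KDM4A is a histone H3 lysine demethylase; how the knockout or Kdm4A was delivered is not stated in the labels. The fetus and embryo libraries were built with different kits (total RNA with an RNA kit, and cDNA with a DNA kit), so values of the 2 stages are only set side by side. All libraries are labelled male, except day 30 NF replicate 2 (female) and the IVF embryos (pooled sexes). No label says whether replicates came from separate animals or embryo pools, so p-values measure the spread between these libraries, which may be technical.

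Total expected counts ran from 3463757 to 11535824 in 13 fetus libraries and from 6448823 to 20352041 in embryos; day 35 abnormal replicate 2 was far shallower, with 588882. That library also stood apart in content: its expression correlated better with day 30 NF replicate 1 (Spearman rho of 0.908 across genes) than with the other day 35 abnormal library (0.789). EIF1AY, a Y-linked gene, was at 0 CPM (counts scaled to the library total by TMM, edgeR's trimmed mean of M-values) in both day 35 abnormal libraries and in day 30 NF replicate 1, all labelled male, and at 33.5 CPM in day 30 NF replicate 2, labelled female. In the other fetus libraries it lay between 20.5 and 52.9 CPM. EIF1AY thus goes against the sex label of these 4 libraries, whose labels may be exchanged or wrong. Summed over 11 Y-linked genes, CPM was 536 and 297 in day 35 abnormal, 279 in day 30 NF replicate 1 and 721 to 1640 in the other fetus libraries. In embryo libraries labelled male EIF1AY lay between 0 and 1.14 CPM, so their label was not checked by it. By EIF1AY the day 35 comparisons of abnormal clones with normal clones and with NF fetuses set libraries without this gene against libraries with it. The interaction is built on the former comparison, so sex and condition cannot be told apart in any of these results. XIST and KDM4A had no matched record, so the XIST-KO and Kdm4A labels were not checked. Muscle, neural and fibroblast markers were detected in every fetus group, and blastocysts had high trophectoderm markers (35509 to 101160 CPM summed over 7 genes), while NANOG and SOX2 were at 0 in the 3 cloned embryo groups.

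In fetuses the cytosolic and dual enzymes were expressed above the mitochondrial ones without exception when genes were ranked by median TPM (transcript abundance scaled to the library total and corrected for length). KARS was highest, with a median of 646 TPM over 14 libraries and a range of 313 to 775 TPM. GARS followed with a median of 168 TPM, and the 9 cytosolic genes had medians from 53.0 TPM (HARS) to 114 TPM (DARS). The 7 mitochondrial genes had medians from 9.37 TPM (AARS2) to 27.3 TPM (IARS2). The ranges of neighbours in this order overlapped, those of HARS (31.0 to 110 TPM) and IARS2 (19.0 to 33.5 TPM) included.

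The cytosolic genes also varied more between fetus libraries than the mitochondrial genes did. FARSA had a highest level 8.07 times its lowest, VARS 6.18 times and NARS 5.95 times. The smallest cytosolic ratios were 2.47 (DARS) and 2.68 (RARS). Among mitochondrial genes this ratio ran from 1.69 (TARS2) to 2.42 (PARS2). The heat map of fetus libraries shows the cytosolic genes higher together in the NF libraries than in the normal libraries, with mostly smaller differences in the mitochondrial genes. In the abnormal libraries the cytosolic genes did not move as a block. At day 30 DARS averaged 343 CPM in abnormal and 162 CPM in normal libraries, and FARSA 69.6 and 112 CPM. The mitochondrial gene EARS2 averaged 59.4 CPM in day 30 abnormal and 30.2 CPM in day 30 normal libraries.

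**Figure D1:**
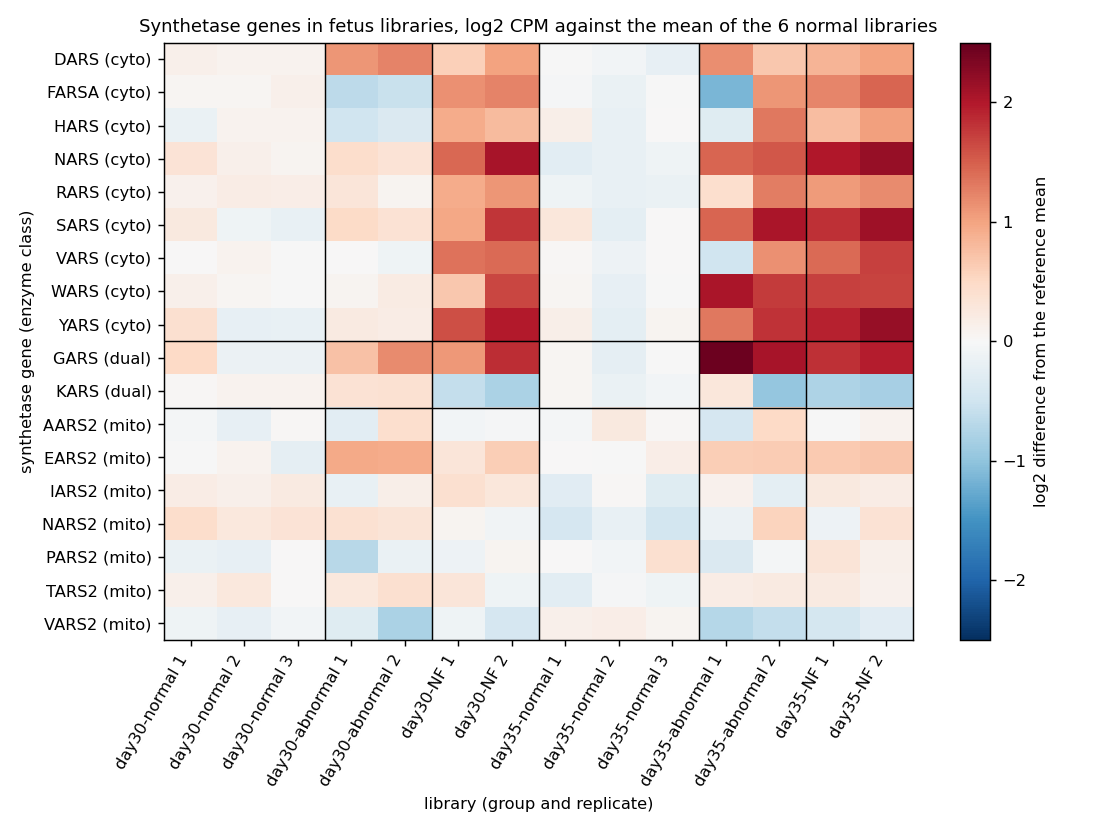
Heat map of the 18 synthetase genes (rows, by enzyme class) in the 14 fetus libraries (columns, by group); colour is log2 CPM minus the mean of the 6 normal libraries. The 9 cytosolic rows and GARS are red in the NF columns at both days, and the mitochondrial rows are mostly paler there.

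Normal clones had less cytosolic synthetase mRNA than NF fetuses at both days. Among the 18 genes, 9 were lower and 0 higher at day 30 (edgeR quasi-likelihood test, Benjamini-Hochberg adjusted p under 0.05), where 29.3% of the 9911 genes tested were called in either direction (15.3% lower, 14% higher). With relative log expression (RLE) size factors, and with limma on TPM, the day 30 split was 8 lower and 1 higher. At day 35, 11 were lower and 1 higher, against 42.3% of all genes (20.1% lower, 22.1% higher). The cytosolic class gave 7 of 9 lower at day 30 and 9 of 9 at day 35, with median log2 fold changes of -1.20 and -1.60, beside 0.00 and 0.06 over all genes. All 9 cytosolic genes were lower in every normal library than in every NF library on each day, a separation seen in 32.6% of all genes at day 30 and 35.1% at day 35. Over the 18 genes, 2 were higher without overlap on each day, against 33.2% and 37.7% of all genes.

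NARS, the asparagine enzyme (chromosome 1, 106911267 to 106933105, Sscrofa11.1), differed most at day 35. Its level was 152, 160 and 171 CPM in the normal libraries against 728 and 823 CPM in the NF libraries. The groups lay far apart, and the log2 fold change was -2.27 (SE of 0.18, as after each ± below for fold changes; adjusted p = 5.1e-05). At day 30 NARS was at 232, 200 and 192 CPM in normal against 493 and 764 CPM in NF fetuses, a log2 fold change of -1.59 ± 0.18 (adjusted p = 0.000274).

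YARS, the tyrosine enzyme (chromosome 6, 89088122 to 89118837), stood at 104, 80.0 and 98.9 CPM in day 35 normal and at 358 and 426 CPM in NF libraries. The groups did not overlap, and the log2 fold change was -2.05 ± 0.23 (adjusted p = 0.000141). At day 30 it was -1.78 ± 0.23 (adjusted p = 0.000489). SARS, the serine enzyme (chromosome 4, 110857067 to 110874712), was at 162, 113 and 135 CPM in day 35 normal and 478 and 578 CPM in NF libraries. Its log2 fold changes were -1.95 ± 0.26 at day 35 (adjusted p = 0.000353) and -1.43 ± 0.26 at day 30 (adjusted p = 0.003).

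GARS (chromosome 18, 42311711 to 42352201) held 225, 185 and 214 CPM in day 35 normal against 765 and 852 CPM in NF libraries, without overlap. It was lower by 3.88-fold at day 35 (adjusted p = 0.000372) and by 2.69-fold at day 30 (adjusted p = 0.00319). WARS, the tryptophan enzyme (chromosome 7, 121212981 to 121238144), was lower by 3.35-fold at day 35 (adjusted p = 0.000325) and by 2.30-fold at day 30 (adjusted p = 0.00382). VARS followed with 3.03-fold (adjusted p = 0.00311) and 2.56-fold (adjusted p = 0.0108).

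RARS and DARS, both of the multi-synthetase complex, differed less. RARS was 2.44-fold lower at day 35 and 1.82-fold lower at day 30, and DARS 2.03-fold and 1.65-fold. FARSA and HARS passed at day 35, with log2 fold changes of -1.42 ± 0.40 (adjusted p = 0.0158) and -0.91 ± 0.32 (adjusted p = 0.0421), and at day 30 had -1.11 ± 0.40 (adjusted p = 0.0583) and -0.85 ± 0.32 (adjusted p = 0.0677).

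KARS, the other complex member measured, had higher values in normal clones. It was at 1282, 1340 and 1350 CPM in day 30 normal and 832 and 726 CPM in NF libraries, and at 1299, 1121 and 1202 against 740 and 711 CPM at day 35. No normal library overlapped an NF library, yet neither difference passed, with log2 fold changes of 0.77 ± 0.28 (adjusted p = 0.0567) and 0.73 ± 0.28 (adjusted p = 0.0505).

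Of the mitochondrial enzymes, EARS2, which charges glutamate, was lower in normal clones at both days (log2 fold changes of -0.52 ± 0.16 and -0.61 ± 0.16). VARS2, the mitochondrial partner of VARS, was higher at day 35 (0.47 ± 0.17, adjusted p = 0.0484) while VARS was lower. With records matched with their version VARS2 turned to -1.54, a value from 1 of its 3 records. NARS2, the partner of NARS, gave 0.36 ± 0.22 at day 30 and -0.49 ± 0.22 at day 35 and passed at neither. AARS2, IARS2, PARS2 and TARS2 had log2 fold changes between -0.39 and 0.04, and none passed.

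Other measurements moved with these differences or with their calls. Without day 30 NF replicate 2, the higher of the pair for NARS and WARS, the day 30 count fell from 9 to 5, as DARS, RARS, VARS and EARS2 no longer passed. Of 14 fits that each left out 1 library, EARS2 at day 30 lost its call in 8, HARS at day 35 in 9 and VARS2 at day 35 in 11, and FARSA at day 35 lost it without day 35 NF replicate 2. Cell-type markers moved with the same groups: the fibroblast list (6 of 8 genes matched) summed to 40574 to 42626 CPM in day 30 NF and 11402 to 14195 CPM in day 30 normal libraries, and to 30770 to 34772 against 15232 to 25798 CPM at day 35. The neural list (7 of 8) was 546 to 901 against 2302 to 2932 CPM at day 30 and 486 to 507 against 3198 to 5220 CPM at day 35. The erythroid list (8 of 8) was 58.7 to 228 against 1309 to 2941 CPM at day 30, with SLC4A1 at 0 in NF, and 176 to 188 against 1438 to 2859 CPM at day 35. The liver list (8 of 8) was 23.8 to 33.6 against 73.1 to 105 CPM at day 30 and 25.5 to 28.0 against 167 to 238 CPM at day 35, with AFP at 0 in NF at both days. Their part in the result was not tested, and in bulk tissue fewer cells of a type and less RNA per cell cannot be told apart.

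**Figure D2:**
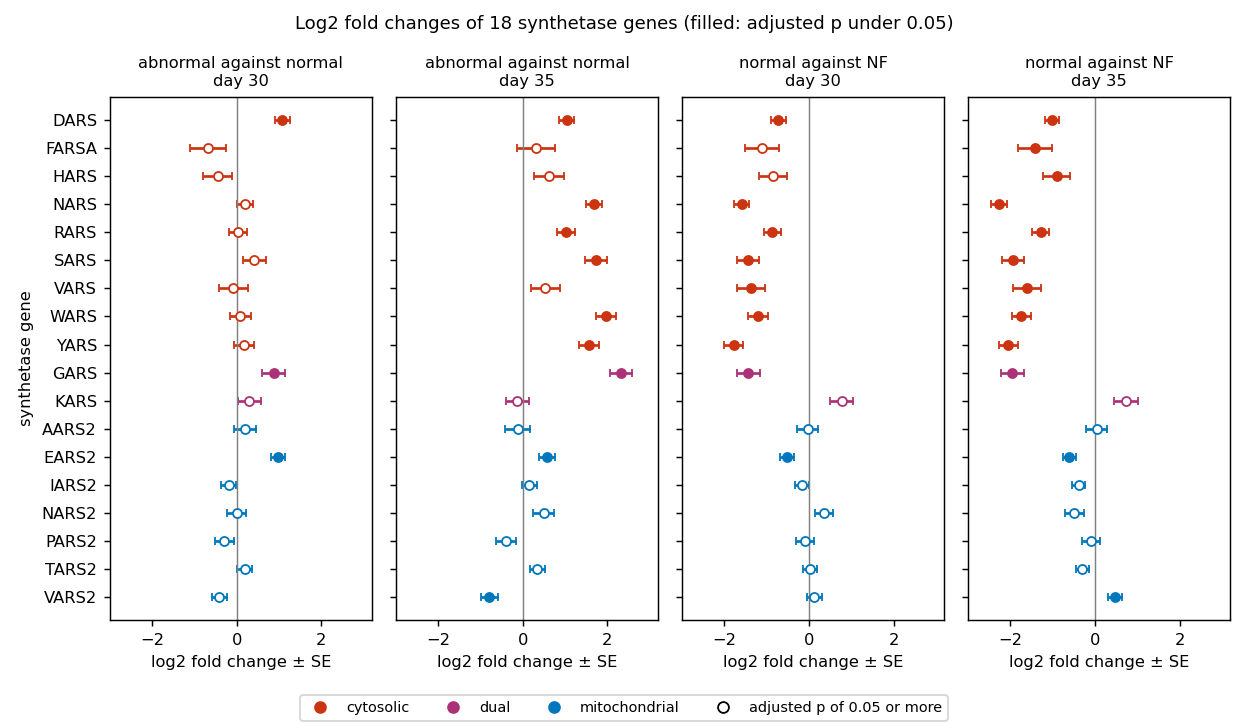
Log2 fold change ± SE of each synthetase gene (rows) in 4 comparisons (panels); colour gives the enzyme class and filled points have adjusted p under 0.05. In the normal against NF panels the 9 cytosolic genes and GARS lie left of 0, with NARS at -2.27 at day 35, and in the abnormal against normal panel at day 35 GARS lies farthest right at 2.32.

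Of the 18 synthetases, 3 were higher and 0 lower in abnormal than in normal clones at day 30, a share close to that of all genes, where 15.4% of all genes were called (8.93% higher, 6.46% lower). Libraries did not overlap for 5 of the 18 as higher and 3 as lower, against 30.9% and 33.3% of all genes. The median over the 18 genes was 0.13 on the log2 scale, beside -0.02 over all genes. DARS, the aspartate enzyme (chromosome 15, 15810497 to 15885706), had 326 and 359 CPM in abnormal and 165, 160 and 160 CPM in normal libraries. Both abnormal libraries lay above all normal ones, with a log2 fold change of 1.08 ± 0.17 (adjusted p = 0.0033).

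EARS2 (chromosome 3, 22654351 to 22684246) had 59.9 and 59.0 CPM in abnormal against 30.9, 33.0 and 26.6 CPM in normal libraries. These groups did not overlap either, with a log2 fold change of 0.98 ± 0.16 (adjusted p = 0.00389). The value turned to -0.80 when records were matched with their version, a match that keeps 1 of the 4 EARS2 records. GARS had 363 and 494 CPM in abnormal against 305, 196 and 195 CPM in normal libraries. The highest normal library lay close under the lowest abnormal one, the log2 fold change was 0.88 ± 0.27 (adjusted p = 0.0467), and the call was lost in 9 of 14 fits that each left out 1 library, among them those without either day 30 abnormal library.

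The remaining cytosolic genes did not pass at day 30. NARS gave 0.20 ± 0.19, WARS 0.09 ± 0.24, YARS 0.17 ± 0.23 and SARS 0.42 ± 0.27 on the log2 scale. FARSA was at 67.3 and 71.8 CPM in abnormal and 110 to 116 CPM in normal libraries, without overlap, but its log2 fold change of -0.68 ± 0.43 did not pass (adjusted p = 0.306). Leaving out day 35 abnormal replicate 1 or 2, which share the estimate of spread, raised the day 30 count from 3 to 6 genes, 4 higher and 2 lower. Other cell types differed at day 30 too: the trophectoderm list, which holds the keratins KRT8 and KRT18 that other epithelia also express, summed to 2013 to 2580 CPM in abnormal and 219 to 282 CPM in normal libraries (7 of 8 genes matched, CDX2 at 0 in normal). The leukocyte list (6 of 6) summed to 196 to 248 against 62.0 to 77.4 CPM, the endothelial list (4 of 6) to 687 to 949 against 375 to 394 CPM, and the neural list to 637 to 723 against 2302 to 2932 CPM; their part in the result was not tested.

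At day 35 abnormal clones, whose libraries had EIF1AY at 0, had higher levels of most cytosolic synthetases than normal clones: 8 of 18 genes were higher and 1 lower, where 23.2% of all genes were called (10.9% higher, 12.3% lower). Libraries did not overlap for 10 of the 18 as higher and 1 as lower, against 17.1% and 25.9% of all genes. The cytosolic class contributed 6 of 9 higher genes, with a class median of 1.04 on the log2 scale beside 0.00 over all genes, and GARS and EARS2 were the others. The 5 measured genes of the list of known ATF4 targets (GARS, NARS, SARS, WARS and YARS) were each called higher, and took the 5 largest changes. That list was chosen with earlier results of these data known, so this count is not independent support. Its other genes, AARS, CARS, EPRS, IARS, LARS, MARS and TARS, had no matched record.

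GARS rose most: it had 1180 and 901 CPM in the abnormal libraries against 225, 185 and 214 CPM in normal ones. Both abnormal libraries lay far above every normal one, with a log2 fold change of 2.32 ± 0.27 (adjusted p = 0.000425). WARS had 492 and 402 CPM against 123, 104 and 119 CPM, again far apart, with a log2 fold change of 1.96 ± 0.24 (adjusted p = 0.000508). SARS had 366 and 548 CPM against 162, 113 and 135 CPM, and a log2 fold change of 1.73 ± 0.27 (adjusted p = 0.00165). In all 3 genes every abnormal library lay above every normal library.

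NARS had 498 and 534 CPM in abnormal libraries, close to each other and far above the normal 152, 160 and 171 CPM. Its log2 fold change was 1.68 ± 0.19 (adjusted p = 0.000359), while its mitochondrial partner NARS2 had 26.5 and 43.2 CPM against 21.9, 25.9 and 21.5 CPM and did not pass (0.49 ± 0.25, adjusted p = 0.196). YARS had 236 and 329 CPM against 104, 80.0 and 98.9 CPM, a log2 fold change of 1.57 ± 0.23 (adjusted p = 0.00131). DARS and RARS rose by 1.04 ± 0.18 (adjusted p = 0.00256) and 1.03 ± 0.21 (adjusted p = 0.00637).

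EARS2 was 1.49-fold higher (48.0 and 48.6 CPM against 31.3, 31.0 and 34.9 CPM; adjusted p = 0.0379), a call lost in 8 of 14 fits that each left out 1 library. VARS2 was the 1 gene called lower (chromosome 7, 23404400 to 23416442), with 32.6 and 35.1 CPM against 58.0, 59.6 and 55.9 CPM and a log2 fold change of -0.79 ± 0.20 (adjusted p = 0.0166). Its call was lost without abnormal replicate 1, and neither library of the abnormal group overlapped the normal ones. With records matched with their version both directions turned, to 0.89 for VARS2 (1 of its 3 records kept) and -5.28 for EARS2 (1 of 4 kept).

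The 2 day 35 abnormal libraries differed from each other in the rest of the cytosolic class. Replicate 1 had FARSA at 48.0, VARS at 168 and HARS at 68.3 CPM, each below every normal library (94.2 to 105, 218 to 244 and 74.6 to 93.2 CPM), and KARS at 1547 CPM. Replicate 2, the shallow library, had FARSA at 227, VARS at 526, HARS at 210 and KARS at 647 CPM, which was high for the cytosolic genes and low for KARS, as in the NF libraries. Without replicate 2 the counts were 9 higher and 3 lower, and without replicate 1 they were 10 higher and 1 lower. GARS, WARS, SARS, NARS, YARS, DARS and RARS passed as higher in both of those fits.

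**Figure D3:**
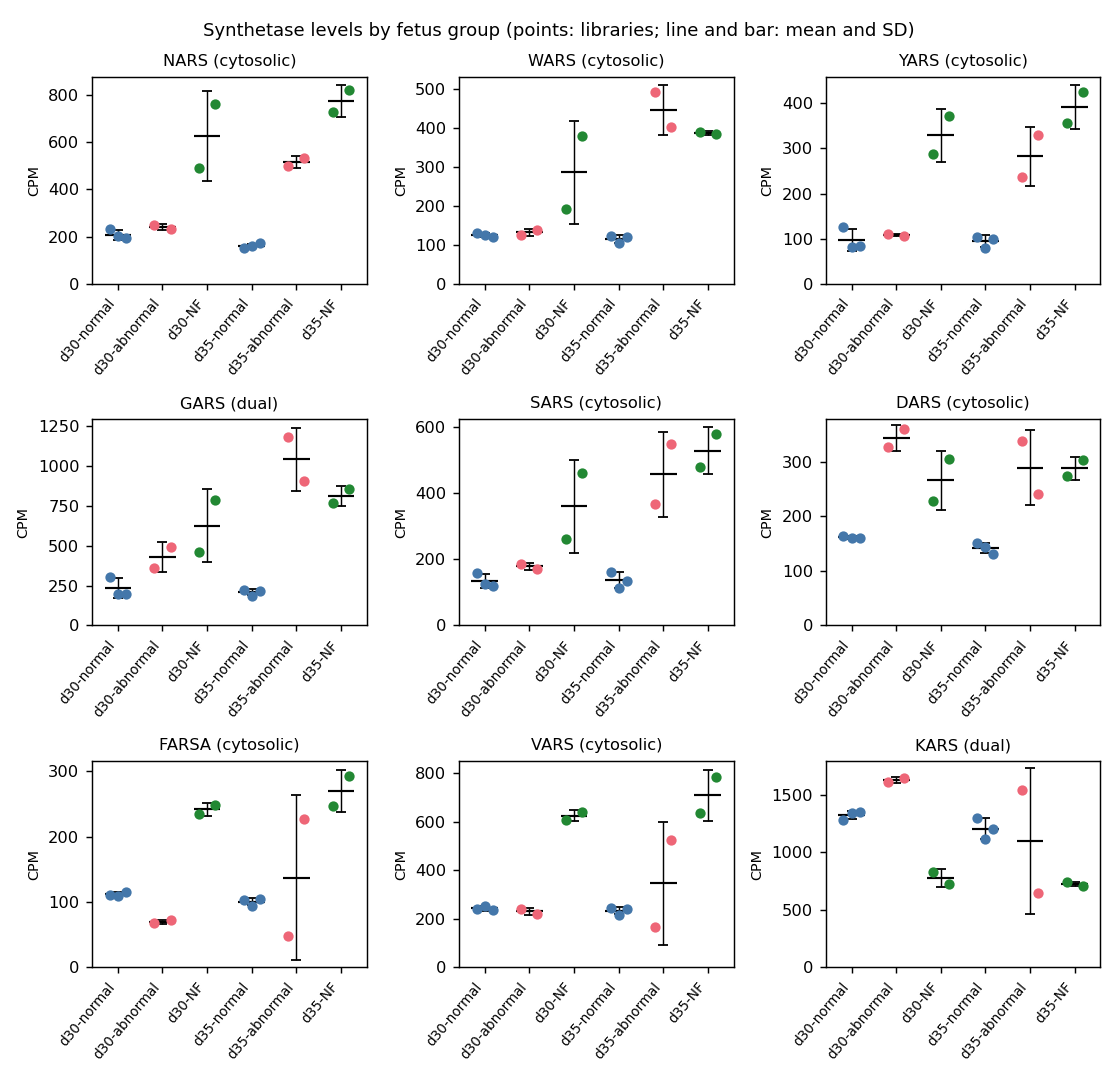
CPM of 9 synthetase genes (panels) in the 6 fetus groups; points are libraries, lines and bars are the mean and SD. In the GARS, WARS and NARS panels both day 35 abnormal points lie far above the normal points, whereas in the FARSA, VARS and KARS panels the 2 abnormal points lie far apart.

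Markers of other cell types moved at day 35 as well. The neural list summed to 361 and 353 CPM in abnormal against 3198 to 5220 CPM in normal libraries. The skeletal muscle list (7 of 8 genes matched, TNNT3 at 0 in abnormal) gave 61.4 CPM in abnormal replicate 1 and 602 CPM in replicate 2, against 895 to 1677 CPM. The trophectoderm list gave 5424 and 267 against 278 to 417 CPM, and the erythroid list 2249 and 5.40 against 1438 to 2859 CPM. The leukocyte list gave 26.9 and 13.5 against 129 to 175 CPM (PTPRC at 0 in abnormal), the reverse of day 30. The endothelial list (4 of 6 matched) gave 130 and 24.3 against 373 to 470 CPM, and the liver list (8 of 8) 46.0 and 21.6 against 167 to 238 CPM. Their part in the result was not tested.

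The change from normal to abnormal was larger at day 35 than at day 30 for 3 synthetases by the interaction term of the same fit, with 0 smaller, where 4.05% of all genes were called (1.31% larger, 2.73% smaller). The difference of the effects was 1.87 ± 0.34 for WARS (adjusted p = 0.0166), 1.48 ± 0.27 for NARS (adjusted p = 0.0154) and 1.39 ± 0.33 for YARS (adjusted p = 0.0418) on the log2 scale. GARS gave 1.44 ± 0.39 and SARS 1.31 ± 0.38, neither of which passed (adjusted p = 0.0629 and 0.0811). Among the 7 mitochondrial genes 0 passed, with 0 at an unadjusted p under 0.05 and a median difference of -0.09. Without day 30 abnormal replicate 1 or replicate 2 no synthetase passed, without day 35 abnormal replicate 1 the count was 10, and without day 35 abnormal replicate 2 or day 30 NF replicate 1 it was 5. YARS lost its call in 10 of the 14 fits.

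Against NF fetuses, which share their libraries with the comparisons above, abnormal clones had 8 synthetases lower and 1 higher at day 30, where 30.0% of all genes were called (14.5% lower, 15.5% higher). Without overlap, 10 of the 18 were lower and 4 higher, against 35.1% and 34.0% of all genes. YARS (-1.61 ± 0.26, adjusted p = 0.00247), NARS (-1.39 ± 0.21, adjusted p = 0.00173), FARSA (-1.80 ± 0.47, adjusted p = 0.0173) and VARS (-1.43 ± 0.37, adjusted p = 0.017) were among the lower genes. HARS, WARS, SARS and RARS were lower by 2.46-, 2.16-, 2.01- and 1.78-fold. KARS was higher, with 1614 and 1647 CPM against 832 and 726 CPM and a log2 fold change of 1.07 ± 0.30 (adjusted p = 0.0224). The count fell to 2 without either abnormal library and without NF replicate 2.

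At day 35, 0 synthetases passed between abnormal clones and NF fetuses by edgeR, with 3 at an unadjusted p under 0.05 and 1 called by DESeq2, where 23.2% of all genes were called (10.2% lower, 13.0% higher). Without overlap, 8 of the 18 were lower and 2 higher, against 27.2% and 18% of all genes. EIF1AY was at 0 CPM in both abnormal libraries and at 31.6 and 27.3 CPM in the NF libraries, so sex and condition cannot be told apart here. NARS gave -0.59 ± 0.20 (adjusted p = 0.0575) and VARS -1.07 ± 0.38 (adjusted p = 0.0593); a p above the threshold does not show that the levels were alike. Without day 35 abnormal replicate 2, 5 synthetases were lower and 1 higher.

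Between day 30 and day 35 of normal clones NARS2, the mitochondrial asparagine enzyme, was the synthetase that passed, as 1 lower gene of 18 where 9.19% of all genes were called (3.84% lower, 5.35% higher). Without overlap, 7 of the 18 genes were lower and 1 higher, against 23.5% and 29.3% of all genes. NARS2 had 21.9, 25.9 and 21.5 CPM at day 35 and 40.0, 35.3 and 37.3 CPM at day 30, without overlap. These levels are of 1 matched record, where 5 NARS2 transcripts are annotated. Its log2 fold change was -0.70 ± 0.20 (adjusted p = 0.0483), and the call was lost in 11 of 14 fits that each left out 1 library.

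Summed by class, the cytosolic enzymes had the widest range over fetus libraries. Their summed TPM was 605 to 686 in day 30 normal, 585 and 621 in day 30 abnormal, and 1204 and 1702 in day 30 NF libraries. At day 35 it was 509 to 544 in normal, 848 and 1370 in abnormal, and 1698 and 1861 in NF libraries. Over the same groups the sum of the dual enzymes ran from 658 (day 30 NF replicate 1) to 1055 TPM (day 35 abnormal replicate 1), and the mitochondrial sum from 81.4 to 129 TPM.

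The ratio of the cytosolic to the mitochondrial sum was 5.29 ± 0.20 (SD, n = 3) in day 30 normal, 5.65 and 6.36 in day 30 abnormal, and 9.87 and 14.4 in day 30 NF libraries. At day 35 it was 5.27 ± 0.68 (SD, n = 3) in normal, 10.4 and 13.4 in abnormal, and 13.1 and 15.1 in NF libraries. The day 30 abnormal and normal ranges lay next to each other, and the day 35 abnormal libraries lay within reach of the NF ones. No test was made on these sums. As a log2 difference, normal minus NF was -1.17 at day 30 and -1.43 at day 35. It turned to 0.96 and 0.47 when records were matched with their version, which leaves 5 of the 18 synthetases. That ratio sets RARS and VARS, with all their records, over 1 of 4 EARS2 records and 1 of 3 VARS2 records. RARS and VARS themselves were lower in normal clones than in NF fetuses on both days. Abnormal minus normal at day 30 turned from 0.18 to -0.14 with versions and to -0.13 with the dual enzymes counted as mitochondrial.

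**Figure D4:**
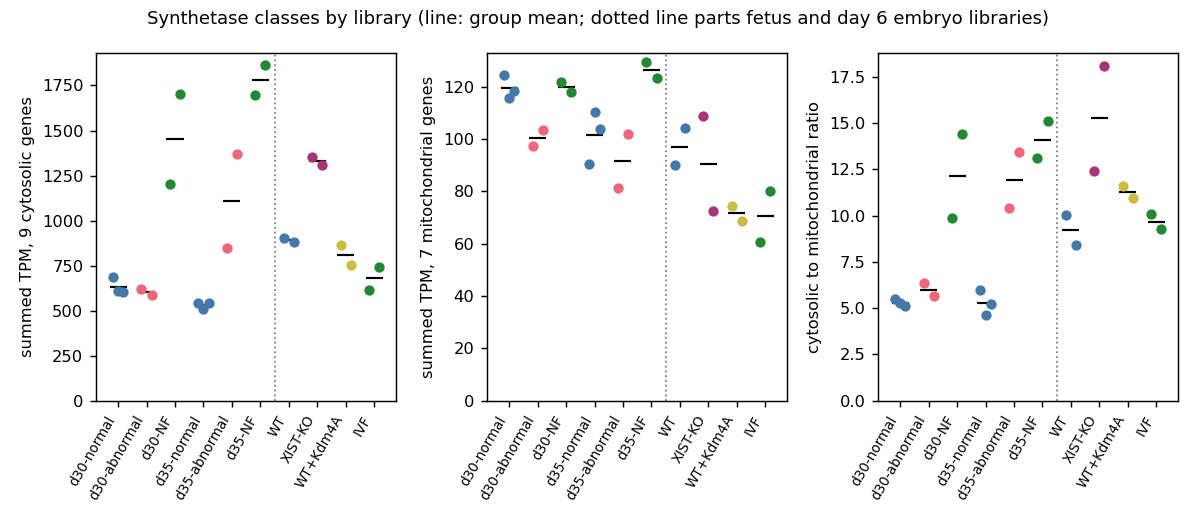
Summed TPM of the 9 cytosolic genes, of the 7 mitochondrial genes, and their ratio, in each library by group (points; lines are group means; a dotted line parts fetuses from embryos). The cytosolic sum is highest in the NF fetuses (1204 to 1861 TPM), and the ratio of the normal clones lies between 4.61 and 5.96.

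Genes that work with the synthetases were counted from lists, which were chosen with earlier results of these data known. In the ATF4 pathway list, 14 of 24 genes were matched and 13 tested. Of these, 8 were higher in abnormal than in normal clones at day 30 (median 1.40 on the log2 scale) and 11 at day 35 (median 2.09), and 7 and 8 were lower in normal clones than in NF fetuses (medians of -1.42 and -1.66). Of all genes tested, 8.93% and 10.9% were higher in the first pair of comparisons and 15.3% and 20.1% lower in the second. ATF4 itself had 716 and 1136 CPM in day 35 abnormal, 434, 383 and 435 CPM in day 35 normal, and 1149 and 1485 CPM in day 35 NF libraries. SESN2, which restrains mTORC1 signalling under stress, changed by 3.53 ± 0.49 between abnormal and normal at day 35 (adjusted p = 0.000894). TRIB3, a pseudokinase induced by ATF4, changed by 5.37 ± 0.96 (adjusted p = 0.00336) and STC2, a secreted glycoprotein, by 4.85 ± 0.64 (adjusted p = 0.000723). ASNS, which makes the asparagine that NARS charges, had 303 and 124 CPM in day 35 abnormal and 0, 17.0 and 0 CPM in normal libraries (5.27 ± 1.64, adjusted p = 0.0392). ASNS was at 2.05 and 0.175 CPM in day 35 NF libraries, where ATF4 and NARS were high. At day 30, where it is 1 of the 8 called genes, it was at 0 and 92.8 CPM in abnormal and 0.965, 0 and 0 CPM in normal libraries, which overlap. Replicates of the same group thus lay as far apart as 0 and 92.8 CPM. Whether the matched records cover all ASNS transcripts was not checked. At day 30 the ATF4 list thus counted 8 of 13 genes while the 5 synthetases known as ATF4 targets counted 1, GARS.

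The scaffold AIMP2 was lower in normal clones than in NF fetuses at day 30 (-1.33 ± 0.30, adjusted p = 0.00787) and day 35 (-1.40 ± 0.30, adjusted p = 0.00376), and AIMP1 was higher in abnormal than in normal clones at day 35 (0.58 ± 0.17, adjusted p = 0.0283). Each was 1 of 3 scaffolds. Of all genes, 15.3% and 20.1% were lower in the first 2 comparisons and 10.9% higher in the last. Of the 6 cytosolic elongation factors measured, EEF1G, a subunit of the factor that recycles EEF1A, was higher in normal clones than in NF fetuses at both days (0.53 ± 0.17 and 0.62 ± 0.17), opposite to the cytosolic synthetases. Abnormal against normal clones gave 1 of 6 elongation factors at day 30 (EEF1B2, 0.68 ± 0.14, adjusted p = 0.0126) and 0 of 6 at day 35 by edgeR, with 0 at an unadjusted p under 0.05. Of 15 mitochondrial translation and tRNA factors, 1 was called at each day in that comparison: TRIT1, a tRNA-modifying enzyme, was higher at day 30 (0.85 ± 0.21) and MTIF2, a mitochondrial initiation factor, was lower at day 35 (adjusted p = 0.0463), where it had 0 counts in both abnormal libraries. MTIF2 also had 0 counts in both day 35 NF libraries, and a mean of 10.9 CPM (SD of 6.6) in day 35 normal libraries. In abnormal against normal clones the shares of elongation factors and mitochondrial factors called are not above those of all genes (15.4% at day 30 and 23.2% at day 35), apart from 1 of 6 elongation factors at day 30, which is close to it. Among the 5 accessory and editing genes, DTD2 (1.15 ± 0.26) and SEPHS2 (0.57 ± 0.17) were higher in abnormal than in normal clones at day 35, where 10.9% of all genes were higher.

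In day 6 embryos the spread between replicates was wider than in fetuses (biological coefficient of variation of 0.893 against 0.29). KARS (median 352 TPM) and SARS (328 TPM) had the highest medians, and IARS2 the lowest (1.095 TPM). WT clones differed from IVF embryos in 3 synthetases, each higher, where 5.71% of the 6958 genes tested were called (4.28% higher, 1.42% lower). Without overlap, 9 of the 18 were higher and 6 lower, against 27.0% and 31.9% of all genes. VARS (chromosome 7, 23886132 to 23899265) had 710 and 661 CPM in WT, 7.04 and 1.72 in IVF, 13.8 and 133 in XIST-KO, and 7.28 and 14.3 CPM in WT+Kdm4A libraries. Both WT libraries lay far above every other embryo library, with a log2 fold change of 7.30 ± 1.21 against IVF (adjusted p = 0.0117).

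VARS2, on the same chromosome, also had its highest levels in WT, with 141 and 155 CPM in WT, 14.1 and 12.9 in IVF, 51.2 and 14.8 in XIST-KO, and 4.27 and 12.6 CPM in WT+Kdm4A libraries. WT again did not overlap the other groups, and the log2 fold change against IVF was 3.46 ± 0.91 (adjusted p = 0.0492). GARS had 602 and 1456 CPM in WT and 117 and 224 CPM in IVF libraries, a log2 fold change of 2.59 ± 0.68 (adjusted p = 0.0488). Without either IVF library 0 synthetases passed, without either WT library 1 did, and without either XIST-KO library 6 did.

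WT+Kdm4A differed from WT clones in 3 synthetases, where 7.43% of all genes were called (2.95% higher, 4.48% lower). Without overlap, 5 of the 18 were higher and 6 lower, against 38.9% and 26.9% of all genes. VARS and VARS2 were lower, with log2 fold changes of -5.99 ± 1.14 (adjusted p = 0.0136) and -4.13 ± 0.94 (adjusted p = 0.0257). DARS was higher, with 190 and 63.2 CPM against 8.37 and 7.84 CPM in WT libraries and a log2 fold change of 3.96 ± 0.91 (adjusted p = 0.0263). The count was 0 without WT replicate 2 and 1 without WT replicate 1 or WT+Kdm4A replicate 1.

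XIST-KO differed from WT in 0 synthetases by edgeR, with 4 at an unadjusted p under 0.05 and 3 called by DESeq2, where 1.11% of all genes were called (0.417% higher, 0.69% lower). Without overlap, 3 of the 18 were higher and 5 lower, against 21.0% and 21.4% of all genes. VARS gave -3.22 ± 1.00 (adjusted p = 0.126), with 13.8 and 133 CPM in its 2 XIST-KO libraries. Against IVF embryos 0 synthetases passed in XIST-KO (5 at an unadjusted p under 0.05, 4 called by DESeq2) and 0 in WT+Kdm4A (3 and 2), where 0.0431% of all genes were called in each, all as higher (0.0% lower). Without overlap, 7 genes were higher and 1 lower in XIST-KO (19.5% and 22.1% of all genes), and 6 higher and 2 lower in WT+Kdm4A (28.3% and 23.0%). SARS had the lowest adjusted p of the 18 genes in XIST-KO against IVF, with a log2 fold change of 3.06 ± 0.65 (adjusted p = 0.141), with 2304 and 887 CPM against 237 and 146 CPM.

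**Figure D5:**
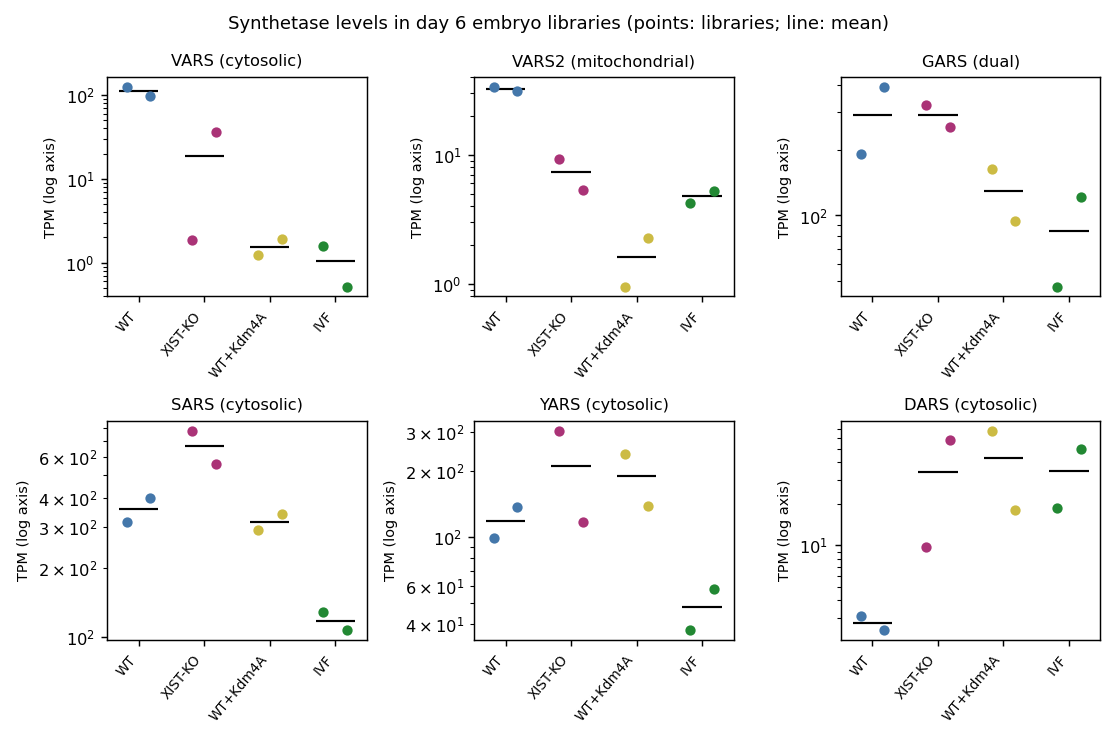
TPM (log axis) of 6 synthetase genes (panels) in the 4 day 6 embryo groups; points are libraries and lines are group means. In the VARS and VARS2 panels the WT points lie above all others, and in the DARS panel they lie below all others.

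The cytosolic to mitochondrial ratio of the embryos was 10.01 and 8.44 in WT, 12.4 and 18.1 in XIST-KO, 11.6 and 10.96 in WT+Kdm4A, and 10.1 and 9.30 in IVF libraries. WT and IVF ranges overlapped. Inner cell mass markers (5 of 6 genes matched) summed to 1159 and 2907 CPM in the WT libraries, 362 and 76.4 CPM in XIST-KO, 81.3 and 111 CPM in WT+Kdm4A, and 37.9 and 44.0 CPM in IVF libraries. NANOG and SOX2 of that list were at 0 in WT, XIST-KO and WT+Kdm4A, and no matched gene of it was at 0 in IVF. The hypoblast list (4 of 5) summed to 116 and 84.6 CPM in WT, with SOX17 and FOXA2 at 0, and to 298 and 307 CPM in IVF libraries; their part in the VARS and VARS2 results was not tested.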

How the data were processed

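Expected counts and TPM per transcript record were deposited by the authors, 1 file per library; RSEM 1.2.4 and the pig build Sscrofa11.1 (susScr11) are named in the submitters' processing notes, and the aligner is not given in the sources used here. Transcript records carried RefSeq accessions; these were matched without version to NCBI's RefSeq gene table of Sscrofa11.1, which covered 25305 of 65927 records (38.4%) and 66.0% to 85.0% of each library's counts, and were summed per gene. Some measured synthetases had fewer matched records than annotated transcripts: NARS2 1 of 5, DARS, FARSA and HARS 1 of 2, and NARS, YARS and TARS2 2 of 3. Their levels are of the matched records only. No genome or sequence table was used.

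The summed expected counts were rounded and fitted with edgeR 4.0.16 in R 4.3.3 (filterByExpr, TMM, quasi-likelihood test, 1 mean per group, no replicate block), for the 14 fetus libraries and the 8 embryo libraries apart. P-values were adjusted over all genes tested (9911 and 6958), with a threshold of 0.05. CPM are TMM-scaled. On simulated counts with 200 changed genes, 16.3% of 2-fold and 63.9% of 4-fold changes were recovered for abnormal against normal at day 30, and 17.3% of 8-fold and 67.8% of 64-fold changes for WT against IVF. More genes were called in the data (1525 and 397), and the adjusted threshold depends on that share. Recovery in the data may therefore differ from these rates. Class sums are of deposited TPM.

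Genes were named by adjusted p under 0.05, largest change first (up to 12 per direction for abnormal against normal, 6 otherwise, 4 per related list); partners for the same amino acid could be added. The members and lists were chosen with earlier results of these data known. Alternatives were RLE size factors, other low-count filters (none, or 1 CPM in 2 libraries), DESeq2 1.42.0, limma 3.58.1 on log2(TPM + 1) and log2(TPM + 0.1), records matched with version, a replicate block, fits of only the groups compared, and each library left out. Leaving out 1 library of a pair leaves a lone library, which is assumed to vary like the other groups. Replicate numbers were not tied to animals or batches by any label.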

Additional observations from a re-analysis of the deposited data

Results flagged for a closer look

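The change from normal to abnormal clones was larger at day 35 than at day 30 for 3 cytosolic synthetases by the interaction term of edgeR's quasi-likelihood fit: WARS (difference of 1.87 on the log2 scale), NARS (1.48) and YARS (1.39). Each rests on 2 abnormal libraries per day, and none of the 3 passed when either day 30 abnormal library was left out. YARS also lost its call with no low-count filter, with the replicate block and with only the groups compared.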

How the results depend on the processing

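Counts of called synthetases moved with several choices; the cause was not tested. Abnormal against normal at day 30 gave 3, but 7 with only the groups compared, 1 with limma on log2(TPM + 0.1) and 0 with records matched by version, a match that leaves 5 of the 18 genes. At day 35 it gave 9, but 5 with only the groups compared and 1 with versions. The interaction gave 3, 6 by DESeq2 and 0 with versions. With versions, normal against NF gave 3 and 2 synthetases at days 30 and 35, and abnormal against NF 3 and 1. Abnormal against NF at day 35 gave 1 by DESeq2 and 4 by limma with either pseudocount. The single call between days of normal clones became 0 with RLE size factors, with either other filter, with limma, with versions and with the replicate block, and 4 with only the groups compared. WT against IVF gave 1 with RLE, with the filter at 1 CPM and with versions, and 6 with no filter, DESeq2 and only the groups compared. XIST-KO against WT gave 2 with no filter and 3 by DESeq2, WT+Kdm4A against WT 5 by DESeq2 and 1 with versions, XIST-KO against IVF 4 with no filter and 4 by DESeq2, and WT+Kdm4A against IVF 1 and 2.

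Matching records by version kept 1 of 4 EARS2 records and 1 of 3 VARS2 records. On these, EARS2 reversed in abnormal against normal (-0.80 at day 30, -5.28 at day 35). VARS2 reversed at day 35, to 0.89 in abnormal against normal and -1.54 in normal against NF. The log2 cytosolic to mitochondrial ratio of abnormal against normal at day 30 (0.18) became -0.14 with versions, -0.13 with dual enzymes counted as mitochondrial and 0.00 without the 2 highest synthetases of each class. With versions normal against NF turned from -1.17 to 0.96 at day 30 and from -1.43 to 0.47 at day 35, and WT against IVF moved from -0.07 to -2.85. The day 35 abnormal ratio could not be given. With versions this ratio sets RARS and VARS over the EARS2 and VARS2 records that were kept. With dual enzymes as mitochondrial, day 35 abnormal against normal moved from 1.17 to 0.85 and WT against IVF to 0.72.

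Leaving out 1 library gave 2 to 6 called synthetases for abnormal against normal at day 30, 8 to 12 at day 35 and 0 to 10 for the interaction. Normal against NF gave 5 to 12 and 8 to 15, abnormal against NF 2 to 11 and 0 to 6, and normal clones between days 0 to 3. In embryos WT against IVF gave 0 to 6, XIST-KO against WT 0 to 2, WT+Kdm4A against WT 0 to 4, XIST-KO against IVF 0 to 4 and WT+Kdm4A against IVF 0 to 1.

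With a replicate block, abnormal against normal gave 2 and 8 synthetases at days 30 and 35, the interaction 2, normal against NF 8 and 10, abnormal against NF 8 and 0, normal clones between days 0, and the embryo comparisons 2, 0, 3, 0 and 0 in the order above. No label ties samples of one number to each other, and the correlations of their deviations from group means ran from -0.31 to 0.148. Most groups hold 2 libraries, whose deviations mirror each other, so these values do not settle whether the numbers pair libraries. TPM scaling shifted the median log2 change of all genes to -0.27 at day 30 and -0.32 at day 35 for abnormal against normal, and RLE to 0.14 for normal against NF at day 35. Depth limits day 35 abnormal replicate 2, with 588882 counts.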

Other observations

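In embryos, CLIC1, a chloride intracellular channel gene near VARS (chromosome 7, 23842829 to 23851162), had 509 and 405 CPM in WT, 1.99 and 2.94 CPM in IVF, 355 and 14.9 CPM in XIST-KO, and 12.6 and 13.6 CPM in WT+Kdm4A libraries. VARS had 710 and 661, 7.04 and 1.72, 13.8 and 133, and 7.28 and 14.3 CPM in the same libraries. CLIC1 was chosen after the values of the genes within 100 kb of VARS were seen, and no test was made on it. The other neighbours differed in direction. CSNK2B (294 and 560 CPM in WT, 23.9 and 96.2 CPM in IVF) and LSM2 (78.6 and 193 against 25.7 and 20.6 CPM) were also higher in WT. ABHD16A (5.8 and 2.96 against 69.6 and 32.6 CPM) and MSH5 (0.161 and 0 against 4.59 and 2.7 CPM) were lower in WT.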
